A study of Homo sapiens with 10 samples.

Results

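The genes described here are 10 gastric differentiation genes measured in sorted human gastric cancer cells: the trefoil peptide genes TFF1, TFF2 and TFF3, the mucin genes MUC1, MUC5AC and MUC6, and GKN1, PGC, CLDN18 and CTSE. Every probe set with exactly 1 gene symbol among them was taken, which gave 20 of the 54675 probe sets on the array. Side population (SP) cells keep little of a Hoechst dye and were separated by flow cytometry from non-side population (NSP) cells, which retain it. There were 4 SP arrays and 4 NSP arrays, each lettered a to d, and 2 arrays of unsorted cells, lettered a and b. All cells were cultured in RPMI medium with serum, and no other agent or genetic change separated the groups in the labels. The origin label of every array names the gastric carcinoma lines AGS and MKN 45, while the source label names AGS on 8 arrays and no line on SP a and b. Nothing says that replicates were separate cultures, so p-values measure the spread between these arrays, which may be technical.

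In the stomach, surface and neck mucous cells secrete gel-forming mucins together with trefoil peptides, small proteins that stabilise the mucus layer and help the epithelium to close after injury. Chief cells and mucous gland cells secrete pepsinogens, the zymogens of the gastric proteases, and tight junctions built of claudins seal the epithelium against acid. Gastric carcinomas often keep some of these products and lose others.

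The sorted arrays lettered a or b are shown apart from those lettered c or d throughout. The labels do not say what the letters stand for, and the split was chosen with earlier results of these data known. The 10 arrays had median intensities of 58.7 to 85.4. The 5 epithelial markers (EPCAM, KRT8, KRT18, KRT19 and CDH1) were at or above the array median on all 10 arrays, with sums of 87972 to 110889 in SP, 73813 to 130671 in NSP and 106711 to 113813 in unsorted cells. Of the 5 blood cell markers 1, of the 4 endothelial markers 0 and of the 5 fibroblast markers 1 (COL1A1) reached the array median on every array. The actin 3'/5' probe set ratio was 3.34 in SP a and 0.987 to 1.28 on the other 9 arrays, and the GAPDH ratio was 1.87 there and 0.864 to 1.06 elsewhere. The source label names no line on SP a and b, while it names AGS on NSP a and b. Differences between SP and NSP within letters a and b therefore cannot be told apart from a difference in label. The part of RNA quality in them was not tested. Differences were tested with limma on log2(intensity + 6.1), over the 20549 probe sets at or above the median level, which left 10 of the 20 member probe sets, from 6 genes, for testing. Levels of different probe sets are not comparable with each other, so levels are read only within a probe set or against the median of the same array. The summed marker intensities are an exception, and they mostly follow the probe sets of highest intensity.

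**Figure D1:**
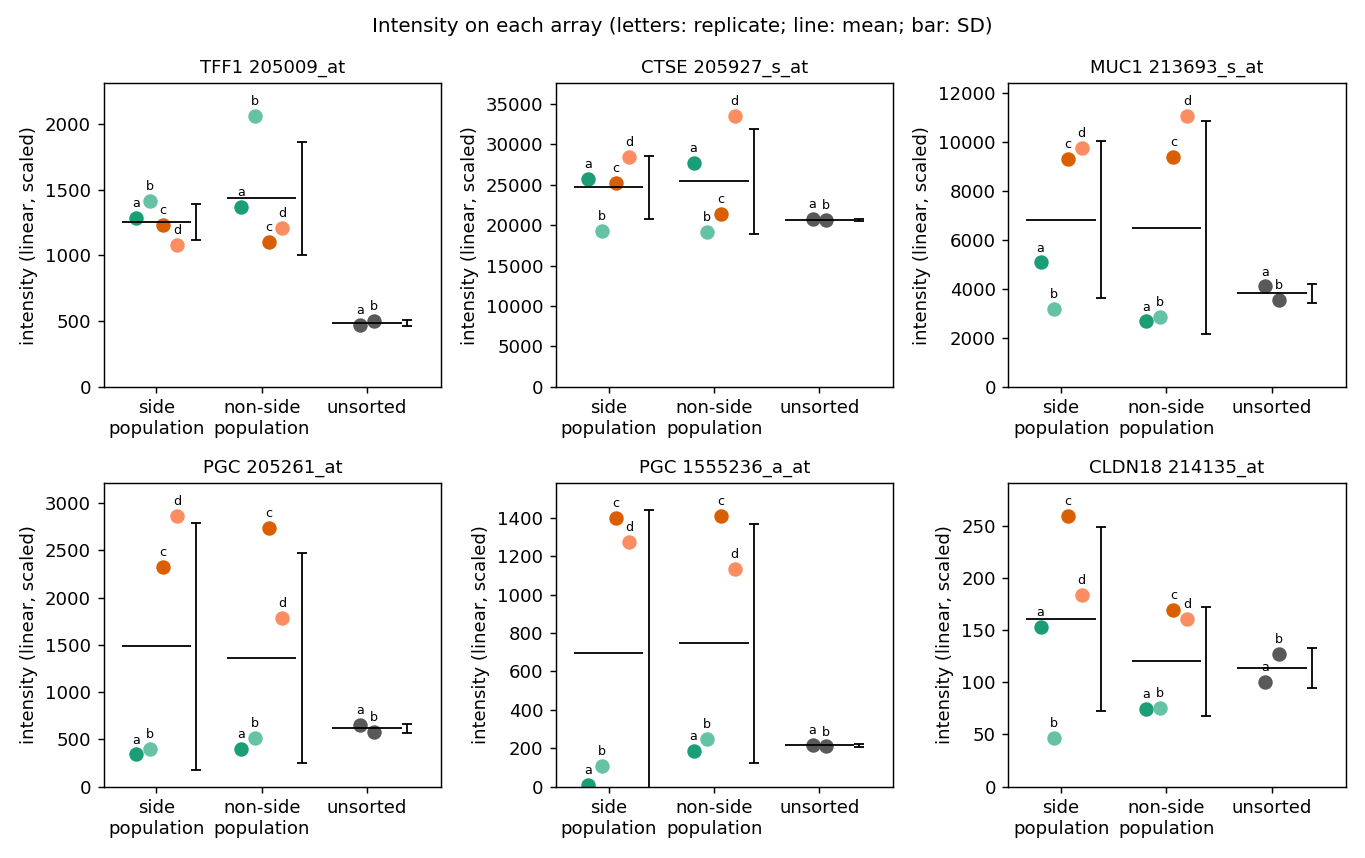
Intensity (linear, scaled) of tested member probe sets on each array, SP, NSP and unsorted cells from left to right. Letters are replicates, the line is the mean and the bar is the SD. For PGC and MUC1 the letters c and d lie above a and b in both sorted populations, and for TFF1 all 8 sorted arrays lie above both unsorted arrays. The lower SD bar of PGC 1555236_a_at in SP is cut at 0.

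TFF1, a trefoil peptide of gastric surface mucous cells, was the one member gene that passed the test, and it was higher in both sorted populations than in unsorted cells. Its probe set 205009_at had intensities of 1286, 1415, 1234 and 1079 in SP a to d, 1366, 2059.5, 1103 and 1208 in NSP a to d, and 469 and 499.6 in the unsorted pair. The lowest sorted array, at 1079, was above the highest unsorted array, at 499.6, and the SP and NSP arrays overlapped. The means were 1254 ± 139 in SP, 1434 ± 431 in NSP (SD, n = 4 each) and 484 ± 21.9 in unsorted cells (SD, n = 2).

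TFF1 rose by 1.36 ± 0.28 log2 units (SE) in SP over unsorted cells, 2.56-fold (limma adjusted p = 0.0296). In NSP cells it rose by 1.51 ± 0.28 log2 units over the same unsorted arrays, 2.85-fold (limma adjusted p = 0.0142). Across all probe sets tested, 1.53% were called higher in SP and 2.58% higher in NSP than in unsorted cells, and 12% had all 8 sorted arrays above both unsorted arrays. On the log2 scale the sorted letters c and d stood 1.24 and the sorted letters a and b 1.62 above unsorted cells. In bulk RNA, a change in the number of cells expressing a gene and a change in RNA per cell cannot be told apart.

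The TFF1 call over unsorted cells rests on few arrays. SP over unsorted cells gave limma adjusted p = 0.0702, 0.0708 and 0.053 without SP a, b or c, 0.339 and 0.202 without the unsorted array a or b, and 0.137 with the AGS-labelled arrays alone, with log2 differences of 1.24 to 1.42 over all alternatives. NSP over unsorted cells gave limma adjusted p = 0.205 and 0.122 without the unsorted array a or b. CEACAM5, known to be high in MKN 45 cells, was like TFF1 higher on every sorted array than on both unsorted arrays. It read 3072, 1603, 2080.5 and 2340 in SP, 2912, 1189.6, 3374 and 3180.1 in NSP and 339.6 and 477 in unsorted cells. Among the sorted arrays, NSP b was the highest for TFF1 and the lowest for CEACAM5. CEACAM5 was the 1 of 3 such genes (with MET and CEACAM6) that passed. It exceeded unsorted cells by 2.44 ± 0.40 log2 units in SP and 2.60 ± 0.40 in NSP (limma adjusted p = 0.0128 and 0.00689). The SP call was lost without unsorted a or b or with AGS-labelled arrays alone, and the NSP call without unsorted a. MET read 1334 to 3875 on the sorted arrays and 1269.5 and 1218.5 in unsorted cells. CEACAM6 went the other way, at 8443 to 10116 on the sorted arrays and 12208 and 12701 in unsorted cells. The summed intensity of the 3 genes overlapped, at 12478 to 16004 in SP, 11398 to 16139 in NSP and 13817 to 14396 in unsorted cells. CEACAM6 made up most of this sum, which therefore does not show the opposite shifts of the genes. The part of a difference in cell line in the TFF1 result was not tested.

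TFF1 did not differ detectably between the sorted populations, by -0.16 ± 0.23 log2 units in SP minus NSP (limma adjusted p = 0.9998). In a and b alone it was -0.31 ± 0.24 (limma adjusted p = 0.438). The 4 sorted arrays of letters c and d read 1079 to 1234, all below the 4 lettered a or b at 1286 to 2059.5, a difference of -0.38 log2 units. Over all probe sets tested, 5.89% were lower in c and d without overlap.

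TFF2, the trefoil peptide of mucous neck and antral gland cells, and TFF3, the trefoil peptide of intestinal goblet cells, lie beside TFF1 in the genome with 0 protein-coding genes between them. Both fell under the level needed for testing. TFF2 (214476_at) read 128.5, 19.3, 59.6 and 31.7 in SP a to d, 30.6, 21.5, 119 and 60.5 in NSP a to d, and 17.8 and 15.1 in the unsorted pair. It reached the array median on 2 arrays, SP a and NSP c, and both unsorted arrays were below every sorted array. Without the filter on low values, TFF2 was 1.26 ± 0.72 log2 units higher in SP than in unsorted cells (limma adjusted p = 0.449), which did not pass. Divided by the array medians, SP and unsorted values of TFF2 overlapped. TFF3 (204623_at) read 96, 98.1, 63.6 and 73.7 in SP a to d, 67.7, 104, 96.8 and 21.7 in NSP a to d, and 68.2 and 69.1 in the unsorted pair, and the groups overlapped.

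MUC1, a transmembrane mucin that lines the apical surface of epithelial cells, was measured by 3 probe sets, all above the array median on every array. It differed between the replicate letters, and no probe set of it passed between the sorted populations. Probe set 213693_s_at had intensities of 5072, 3176, 9282 and 9740.1 in SP a to d, 2669, 2866, 9383 and 11045 in NSP a to d, and 4098 and 3541 in the unsorted pair. In both sorted populations letters c and d, at 9282 to 11045, were above a and b, at 2669 to 5072, and the unsorted arrays lay within the range of a and b. Over all probe sets tested, 8.1% were higher in c and d without overlap. The mean over the 4 arrays was 9863 ± 812 for letters c and d and 3446 ± 1104 for letters a and b (SD, n = 4 each), a ratio of 2.86.

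Probe set 207847_s_at of MUC1 had intensities of 2298.5, 1763, 4738.5 and 5442 in SP a to d, 1009, 1079, 7740 and 4645 in NSP a to d, and 1820 and 1334.5 in the unsorted pair. Letters c and d were again the higher ones in both populations, with a difference of 1.92 log2 units. The remaining MUC1 probe set, 211695_x_at, read 667 to 1624 in letters c and d and 270.4 to 388 in letters a and b, a difference of 1.63. Pairs of the 3 probe sets correlated with r of 0.869 to 0.961 over the 10 arrays, which share the letter pattern.

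Between SP and NSP cells, MUC1 differed by 0.22 ± 0.48, 0.35 ± 0.60 and -0.06 ± 0.53 log2 units on 213693_s_at, 207847_s_at and 211695_x_at, with limma adjusted p = 0.9998 or higher. Within letters a and b, both arrays of SP were above both of NSP on 213693_s_at and 207847_s_at, by 0.54 ± 0.24 and 0.94 ± 0.27 log2 units (limma adjusted p = 0.19 and 0.071), while 211695_x_at gave -0.18 ± 0.37. Within letters c and d the first 2 differences were -0.10 ± 0.24 and -0.24 ± 0.27. The difference between the letter pairs was 1.18 ± 0.39 on 207847_s_at (limma adjusted p = 0.159), so no MUC1 probe set passed in either pair or in the test between them.

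MUC5AC, the main gel-forming mucin of gastric surface mucous cells, stayed near the array median, and no probe set of it passed in any comparison. Probe set 217187_at read 61, 149, 84.1 and 130.1 in SP a to d, 114, 78.4, 117 and 47.3 in NSP a to d, and 96.6 and 143 in the unsorted pair. Probe set 217182_at read 70.8, 92.8, 78.4 and 77.2 in SP a to d, 153, 98.4, 41.1 and 149 in NSP a to d, and 119 and 56.4 in the unsorted pair. The groups overlapped on both, and the 2 probe sets did not move together over the 10 arrays (r = -0.37). The other MUC5AC probe sets, 214385_s_at and 214303_x_at, were below the array median on every array, with highest values of 59.8 and 9.5. MUC5AC is the direct neighbour of the mucin genes MUC2 and MUC5B, with 0 protein-coding genes between each pair.

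MUC6, the gel-forming mucin of gastric gland cells, was not high enough to be tested. Probe set 214133_at read 123, 18.3, 92.6 and 44.3 in SP a to d, 157, 123, 61.9 and 155 in NSP a to d, and 60.4 and 52.8 in the unsorted pair. SP b and d were the lowest sorted arrays, but SP a lay among the NSP arrays. Without the filter the difference between SP and NSP was -0.97 ± 0.51 log2 units (limma unadjusted p = 0.0802, adjusted p = 0.984). Probe set 1565666_s_at of MUC6 ran from 2.7 to 104.5 with overlapping groups.

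PGC encodes pepsinogen C, a zymogen secreted by chief cells and by mucous gland cells of the stomach. Among the tested members it showed the widest separation of the replicate letters. Probe set 205261_at had intensities of 340.5, 402, 2328.5 and 2868 in SP a to d, 398, 519, 2743 and 1787 in NSP a to d, and 652 and 582 in the unsorted pair. Every c and d array was above every a, b and unsorted array, and SP and NSP overlapped within each pair of letters. Over all probe sets tested, 3.97% had the 4 sorted c and d arrays above the other 6. The mean was 2432 ± 488 for letters c and d and 415 ± 75.1 for letters a and b (SD, n = 4 each), a ratio of 5.86. On the log2 scale c and d exceeded a and b by 2.78 in SP and 2.27 in NSP, and the joint value of 2.53 ran from 2.38 to 2.67 over the alternatives.

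The other PGC probe set, 1555236_a_at, read 9.9, 109, 1399 and 1275 in SP a to d, 186, 249.9, 1411 and 1134 in NSP a to d, and 219 and 209 in the unsorted pair. Letters c and d were again the highest arrays, and SP a, the array with the high actin and GAPDH ratios, was lowest at 9.9. Within letters a and b, PGC on this probe set was -2.37 ± 0.65 log2 units in SP minus NSP (limma adjusted p = 0.0622), a difference that did not pass. It became -0.95 without SP a. Without SP b it was -3.79 (limma adjusted p = 0.000987), where the SP side is SP a alone, assumed to vary like the other groups. The difference between the letter pairs, -2.45 ± 0.93 (limma adjusted p = 0.186), became -3.87 (limma adjusted p = 0.0179) without SP b, again on SP a alone. The part of RNA quality in this value was not tested. Probe set 205261_at gave -0.29 ± 0.27 within the same letters, and within letters c and d the values were 0.22 ± 0.27 and 0.08 ± 0.65 on 205261_at and 1555236_a_at.

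CLDN18, a tight junction claudin of gastric epithelium, followed the letters with a smaller step. Probe set 214135_at read 153, 46.9, 259.5 and 183 in SP a to d, 74.2, 75.5, 169 and 161 in NSP a to d, and 100.4 and 127 in the unsorted pair. Letters c and d, at 161 to 259.5, were above letters a and b, at 46.9 to 153, by 1.18 log2 units, though the lowest c or d array and the highest a or b array lay close together. Of the 3 untested CLDN18 probe sets, which were below the array median on all 10 arrays, 232578_at read 44.1 to 58.6 in letters c and d against 5.6 to 32.6 in letters a and b, and the other two overlapped.

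GKN1, a gastrokine secreted by normal gastric surface cells, was below the array median on all 10 arrays. Its probe set 220191_at read 2.1, 6.6, 22.9 and 19.8 in SP a to d, 9.4, 18.9, 2.8 and 17.3 in NSP a to d, and 5.2 and 18.3 in the unsorted pair. At these low intensities the groups could not be ordered, and the values do not show that the transcript was absent.

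CTSE encodes cathepsin E, an intracellular aspartic protease of gastric surface epithelium, and was very high on every array, at 250.01 to 467 times the median of its array. Probe set 205927_s_at had intensities of 25715, 19258, 25185 and 28486 in SP a to d, 27717, 19147, 21351 and 33505 in NSP a to d, and 20769 and 20606 in the unsorted pair. The groups overlapped, and c and d exceeded a and b by 0.24 log2 units with overlapping ranges. SP minus NSP was -0.02 ± 0.21 log2 units and SP minus unsorted was 0.24 ± 0.25 (limma adjusted p = 0.9998 and 0.647).

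**Figure D2:**
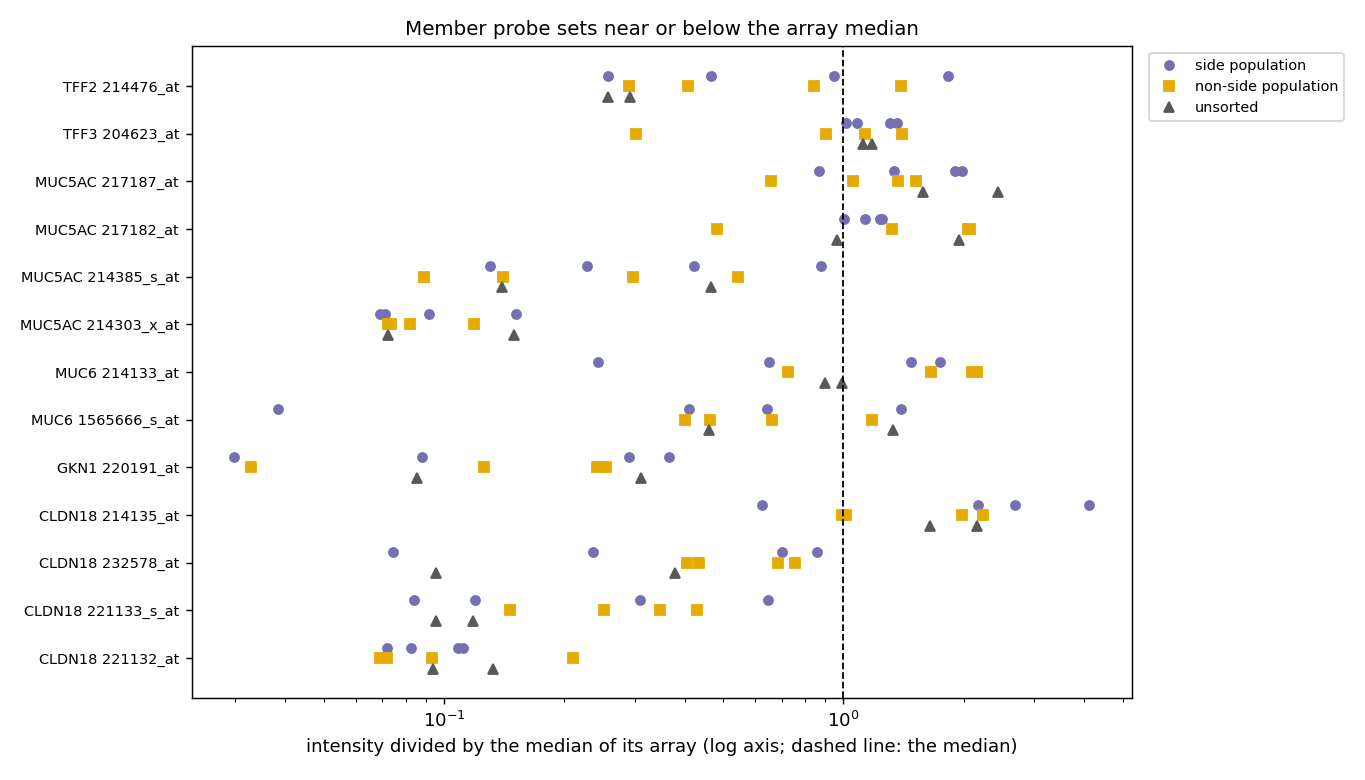
Intensity of the member probe sets near or below the array median, divided by the median of the same array (log axis, dashed line at the median), 1 row per probe set and 1 point per array, marked by group. TFF2, GKN1, MUC6, MUC5AC and the minor CLDN18 probe sets scatter around or below the median, and SP and NSP overlap in every row.

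Of the 10 members, RefSeq promoter entries (GRCh38.p14) were at hand for MUC1, PGC, CLDN18, CTSE and GKN1. The 250 bases before the start of PGC, MUC1 and CLDN18 are shown because these genes stepped together between the letter pairs, and those of CTSE because it did not. Capitals mark matches, on either strand, to 4 motifs: the TATA box TATAAA, the GC box GGGCGG, the E-box CACCTG and the GATA motif GATAA.
PGC (chr6:41747398-41747647, minus strand): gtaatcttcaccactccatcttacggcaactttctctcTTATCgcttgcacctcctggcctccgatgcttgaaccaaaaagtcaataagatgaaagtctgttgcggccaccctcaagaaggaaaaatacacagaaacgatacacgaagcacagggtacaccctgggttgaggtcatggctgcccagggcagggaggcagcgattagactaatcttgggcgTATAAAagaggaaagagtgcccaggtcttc
MUC1, first listed start (chr1:155192916-155193165, minus strand): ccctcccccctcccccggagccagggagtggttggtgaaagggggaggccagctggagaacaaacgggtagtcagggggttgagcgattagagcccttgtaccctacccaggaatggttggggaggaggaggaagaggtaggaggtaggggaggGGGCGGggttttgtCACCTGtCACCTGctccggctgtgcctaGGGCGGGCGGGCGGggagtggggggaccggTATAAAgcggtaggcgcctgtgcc
CLDN18, upstream start (chr3:137998566-137998815, plus strand): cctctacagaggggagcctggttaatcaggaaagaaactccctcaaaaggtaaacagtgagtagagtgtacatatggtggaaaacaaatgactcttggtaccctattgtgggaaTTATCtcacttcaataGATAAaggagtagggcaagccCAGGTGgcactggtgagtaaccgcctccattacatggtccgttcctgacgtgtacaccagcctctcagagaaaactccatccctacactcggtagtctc
CLDN18, downstream start (chr3:138009915-138010164, plus strand): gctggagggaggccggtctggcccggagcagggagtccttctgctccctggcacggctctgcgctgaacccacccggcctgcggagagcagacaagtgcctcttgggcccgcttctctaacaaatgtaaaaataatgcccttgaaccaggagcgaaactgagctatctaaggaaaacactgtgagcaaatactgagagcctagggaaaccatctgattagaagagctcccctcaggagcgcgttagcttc
CTSE (chr1:206023896-206024145, minus strand): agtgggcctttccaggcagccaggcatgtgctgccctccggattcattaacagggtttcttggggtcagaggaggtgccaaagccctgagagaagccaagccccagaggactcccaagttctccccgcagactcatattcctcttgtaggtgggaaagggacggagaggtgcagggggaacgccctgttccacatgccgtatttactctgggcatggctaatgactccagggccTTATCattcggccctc

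PGC had a TATAAA 30 bases before the start and 1 GATAA motif 212 bases before it, written TTATC on this strand. MUC1 had a TATAAA 24 bases before the start, 4 GGGCGG matches of which the 3 nearest overlap, and 2 CACCTG matches. The upstream CLDN18 start had GATAA motifs 136 and 120 bases and an E-box 99 bases before it, and the downstream start had none of the 4. CTSE had a single GATAA motif, 16 bases before the start. No motif was common to PGC, MUC1 and CLDN18. Among 35116 RefSeq promoter entries of the same length, 10.7% held TATAAA, 42.6% GGGCGG, 17.5% CACCTG and 20.4% GATAA. A match describes letters only, and no binding was measured.

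Across the 10 tested member probe sets, 0 were called between SP and NSP cells, against 0% of all probe sets tested, and 0 of the 10 had an unadjusted limma p under 0.05, against 4.75% of all. The median log2 difference was -0.03 over the 10, with 4 above zero, beside 0.02 and 52.4% above zero over all probe sets tested. The 3-group fit counts the step between letters as spread. The SE was 0.48 for MUC1 213693_s_at and 0.74 for PGC 205261_at, against 0.24 and 0.27 within letters a and b. The 0 of the 10 therefore does not show that MUC1 and PGC were alike in SP and NSP. With letter pairs as a term, 0 members were called. Over unsorted cells, SP cells had 8 of the 10 above zero, a median of 0.44 and 1 call. Over all probe sets, 51.8% were above zero, with a median of 0.02, and 2.1% were called. NSP cells had 8 above zero, a median of 0.57 and 1 call. Over all probe sets, 49.8% were above zero there, with a median of -0.003, and 3.58% were called. Both comparisons share the 2 unsorted arrays, and the call was TFF1 in each. Relative to unsorted cells, the tested MUC1, PGC and CLDN18 probe sets differed by -0.10 to -1.18 log2 units in letters a and b. In letters c and d they differed by 0.72 to 2.57.

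**Figure D3:**
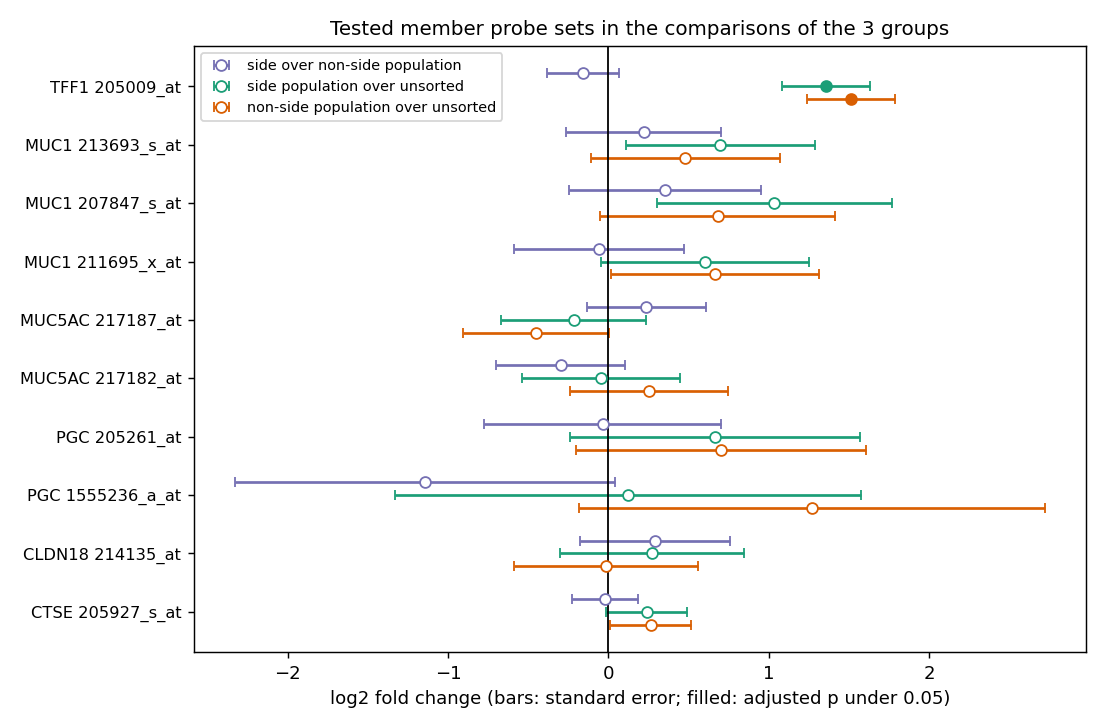
Log2 differences with standard errors for the 10 tested member probe sets, SP versus NSP and each sorted population versus unsorted cells. Filled points have an adjusted p under 0.05, which is TFF1 against unsorted cells only.

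Within letters a and b, 0 of the 10 were called between SP and NSP cells, against 4.16% of all probe sets (2.59% higher and 1.57% lower in SP), and 3 had an unadjusted p under 0.05, against 25.3%. These were MUC1 on 213693_s_at and 207847_s_at and PGC on 1555236_a_at. Within letters c and d, 0 were called, against 0% of all, and 0 of the 10 had an unadjusted limma p under 0.05, against 4.93%. The difference between the letter pairs gave 0 calls, against 0%, and 2 of the 10 at an unadjusted p under 0.05, against 21%.

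**Figure D4:**
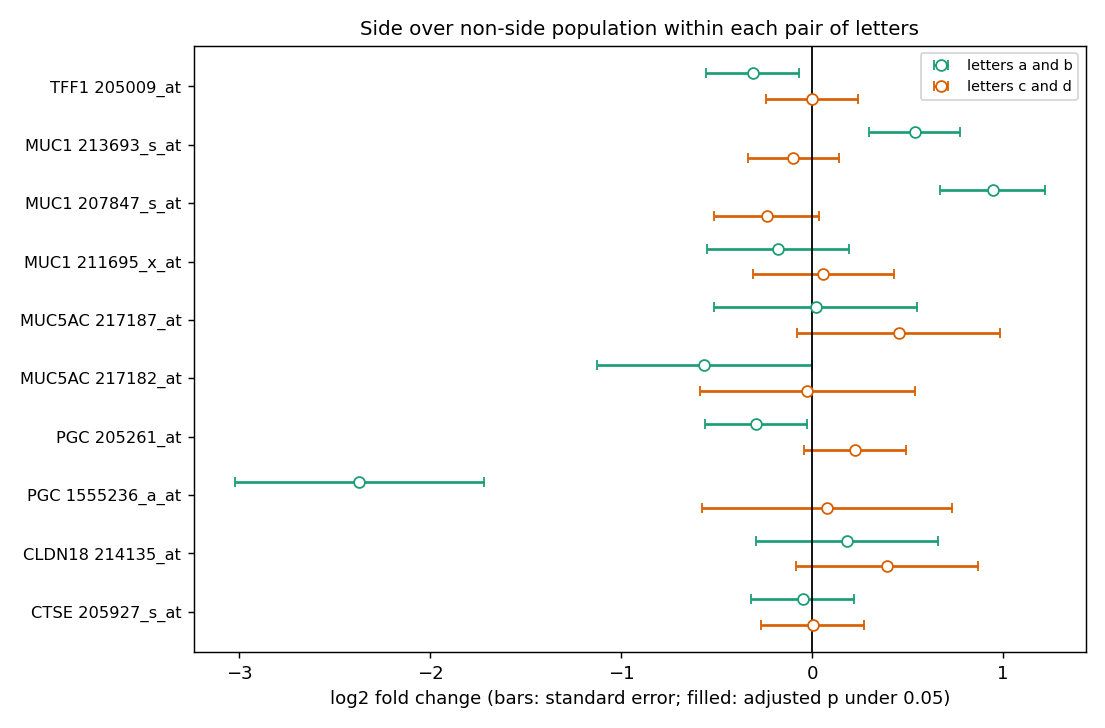
Log2 differences between SP and NSP cells with standard errors, given apart for each pair of letters. The PGC probe set 1555236_a_at lies farthest from zero, at -2.37 in letters a and b, and no point passed the adjusted threshold.

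The replicate letters separated 6 of the 10 tested member probe sets, from MUC1, PGC and CLDN18, with every c and d array above every a and b array by at least 1 log2 unit in the mean. All 10 reach the level for testing without the c and d arrays as well. Over all probe sets tested, 3.37% had c and d above a and b without overlap and by at least 1 log2 unit. The share was 0.453% for at least 2 log2 units, which both PGC probe sets reached. The separation by letters is a description of a split seen in these data, with no test. MUC1 and PGC correlated with r of 0.896 to 0.952 over the 10 arrays by PGC probe set 205261_at and of 0.646 to 0.785 by 1555236_a_at, and MUC1 and CLDN18 with r of 0.752 to 0.842. The r of CLDN18 was 0.747 with PGC 205261_at and 0.486 with 1555236_a_at. The r of TFF1 with these probe sets was -0.17 to 0.033. The points share the letter pattern and the arrays. Among the AGS-labelled arrays, letters a and b of sorted cells are NSP only, and in NSP c and d exceeded a and b by 1.88 log2 units for MUC1 (213693_s_at), 2.27 for PGC (205261_at) and 1.08 for CLDN18 (214135_at). The 3 MKN 45 genes MET, CEACAM5 and CEACAM6 differed by 0.44, 0.40 and 0.066 log2 units in letters c and d minus a and b. Over all probe sets tested the median was 0.0625, with 55.8% above zero, so CEACAM6 lay at that median. Each of the 3 genes overlapped between the letter pairs. Their summed intensity, mostly CEACAM6, was 14047 to 16139 in letters c and d and 11398 to 16004 in letters a and b. The part of cell line in the letter pattern was not tested.

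**Figure D5:**
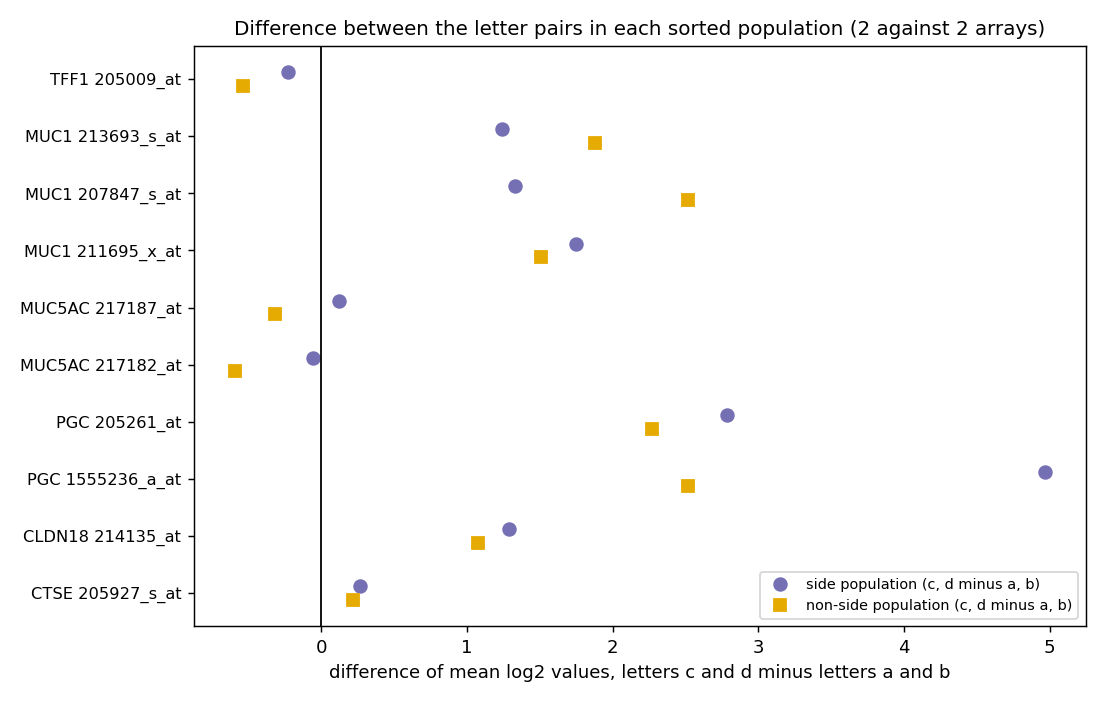
Difference of mean log2 values, letters c and d minus letters a and b, in SP and NSP cells (2 arrays against 2), for the tested member probe sets. MUC1, PGC and CLDN18 lie above 1 in both populations, TFF1 below zero and CTSE near zero.

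The wider gastric programme was described by lists chosen with earlier results known. Of 11 other mucous and surface cell genes, 5 were tested, and 0 passed between SP and NSP or against unsorted cells. Over all 11, tested or not, 7 were higher in letters c and d, with a median difference of 0.56 log2 units, beside 51.1% higher and a median of 0.013 over the 41097 probe sets with 1 symbol. ANXA10, CAPN8 and REG4 were higher in letters c and d without overlap and by at least 1 log2 unit. Over all probe sets tested this share was 3.37%. ANXA10 and CAPN8 reached the level for testing only through the c and d arrays. REG4, a secreted lectin of gastric and intestinal epithelium, read 10470, 5720.5, 21118 and 21885 in SP a to d, 12673, 8791, 17405 and 20652 in NSP a to d and 6851 and 5902 in unsorted cells. ANXA10, an annexin of gastric mucosa, read 325 to 493 in letters c and d and 5.8 to 104 in letters a and b.

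Of 10 measured chief, parietal and endocrine cell genes 2 were tested, and of 12 other mucins 3 were tested, with 0 called in any comparison. PGA3, PGA4, PGA5 and MUC21 were not analysed here. Of 25 measured genes of mucin O-glycosylation and folding 19 were tested, with 1 call. It came within letters a and b, where 4.16% of all probe sets tested were called. There SP and NSP also differ in the source label, which cannot be told apart from sorting. GALNT3, which starts O-glycan chains, was 1.09 ± 0.26 log2 units higher in SP than in NSP in those letters (limma adjusted p = 0.0434). It read 1132 and 1932 in SP a and b, against 656.7 and 724 in NSP a and b. Within letters c and d it was -0.47 ± 0.26, and the difference between the pairs had limma adjusted p = 0.138. The GALNT3 call was lost with any 1 of the 10 arrays left out, without the filter on low values and after quantile normalization (limma adjusted p = 0.0507 to 0.141). In letters c and d minus a and b, 20 of the 25 were above zero, with a median of 0.54. Over all probe sets with 1 symbol, 51.1% were above zero, with a median of 0.013. C1GALT1C1, the chaperone of the core O-glycan enzyme, read 4031 to 5741 in c and d against 1597 to 2682 in a and b. SPDEF, a transcription factor of mucous cells, read 180.1 to 319 against 74.4 to 140.4. Such a step, without overlap and of at least 1 log2 unit, was seen in 3.37% of all probe sets tested. Unsorted cells read 4508 and 4448 for C1GALT1C1 and 368 and 229.9 for SPDEF, above every a and b array, unlike MUC1.

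Of 17 measured transcription factors of the gastric epithelium 14 were tested. GATA6, an endodermal factor of gastric epithelium, fell in both sorted populations: it read 2331.5, 1873.5, 1931 and 3082.5 in SP, 1345, 1036, 1726 and 3039 in NSP and 7597 and 8426 in unsorted cells. Every sorted array was below both unsorted arrays, with log2 differences of -1.82 ± 0.37 in SP (limma adjusted p = 0.0289) and -2.28 ± 0.37 in NSP (limma adjusted p = 0.0086). The SP call was lost with AGS-labelled arrays alone and without SP a, b or c or either unsorted array (limma adjusted p = 0.0577 to 0.274), and the NSP call without either unsorted array (limma adjusted p = 0.0912 and 0.111). Across all probe sets 0.569% and 0.998% were called lower in SP and NSP than in unsorted cells. GATA4 was 1.45 ± 0.31 log2 units higher in SP than in NSP within letters a and b (limma adjusted p = 0.0373). The difference between the pairs had limma adjusted p = 0.174. Within letters a and b 4.16% of all probe sets tested were called, and the source label also differs between SP and NSP there. The GATA4 call was lost without SP a or b, NSP a or b, or either unsorted array, without the filter on low values and after quantile normalization (limma adjusted p = 0.0533 to 0.183). Over all 17 measured, 11 were higher in letters c and d, with a median difference of 0.34 log2 units. Over all probe sets with 1 symbol the values were 51.1% and 0.013. EHF, which reached the level for testing only through c and d, and ESRRG were higher in letters c and d without overlap, at 370.1 to 513 against 47 to 316.5 and at 359.9 to 775 against 129.6 to 173. SOX2, a foregut factor, was lower there, at 231 to 324 in c and d, 343 to 1218 in a and b and 1136 and 973 in unsorted cells. Over all probe sets tested, 8.1% were higher and 5.89% lower in c and d without overlap.

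Of 12 intestinal differentiation genes 5 were tested, with 0 called. Over all 12, 8 were higher in letters c and d, with a median difference of 0.48 log2 units. Over all probe sets with 1 symbol the values were 51.1% and 0.013. LGALS4, a galectin of intestinal epithelium, was the 1 tested without overlap and at least 1 log2 unit higher, against 3.37% of all. It read 4418 to 6452 in letters c and d and 621 to 3262 in letters a and b. Of 9 other claudins 8 were tested, with 1 call, against 1.53% of all probe sets called higher in SP than in unsorted cells. CLDN15 passed in SP over unsorted cells, 1.63 ± 0.35 log2 units (limma adjusted p = 0.0366), with 824, 560.5, 469 and 627 in SP and 153 and 241.5 in unsorted cells. Its call was lost without SP a, b or d, NSP a or d or either unsorted array, with AGS-labelled arrays alone and without the filter on low values (limma adjusted p = 0.0512 to 0.451). Over all 9 other claudins, 7 were higher in letters c and d, with a median difference of 0.30 log2 units. These compare with 51.1% and 0.013 over all probe sets with 1 symbol. CLDN4 and CLDN6 were lower (-0.34 and -0.86). CLDN2, a claudin that forms cation pores, separated the letters more widely than CLDN18 did in log2 difference (3.65 against 1.18). It read 2432 to 4869.6 in c and d and 165 to 391 in a and b. Of all probe sets tested, 0.453% were at least 2 log2 units higher in c and d without overlap. Of 10 other cathepsins 8 were tested and 0 called. Over all 10, 5 were higher in letters c and d, with a median difference of 0.047 log2 units, beside the same 51.1% and 0.013. CTSD, a lysosomal aspartic protease, was the 1 tested without overlap and at least 1 log2 unit higher, against 3.37% of all. It read 1129.9 to 2085.5 in c and d, 488 to 951 in a and b and 1967 and 1472 in unsorted cells.

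The genes whose log2 values followed a member most closely over the 10 arrays were taken by Pearson r among the probe sets tested, as a description. For TFF1 they were RXYLT1, TCAF1 and TMEM33 (r = 0.98 each), and RXYLT1 read 498, 505, 511 and 424 in SP, 459, 706, 441 and 484 in NSP and 205 and 264 in unsorted cells. For MUC1 they were TMC4, TMEM164 and SERPINB1 (r = 0.971 to 0.979), and for PGC they were HMGN5, ATP7A and IGFBP2 (r = 0.973 to 0.978). For CLDN18 they were NR5A2, SPACA9 and MYL5 (r = 0.939 to 0.954), and for CTSE they were HPCAL1, STRADA and SUMF1 (r = 0.899 to 0.925). MUC5AC, near the array median, had lower values with PLPBP, FAIM2 and NISCH (r = 0.872 to 0.898). The points share the 10 arrays, with their letter and sorting patterns.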

How the data were processed

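Total RNA of 10 samples was measured on single-channel oligonucleotide arrays. The deposited values are intensities on a linear scale, and GCOS 1.4 is named, per the submitters' processing notes, with no role stated. How signals were computed was not given in the sources used here. With 2% left out at each end, each array's trimmed mean came to 499.9, and no rescaling was done. Before log2, 6.1 (the 10th percentile over the whole table) was added, which understates fold changes of low probe sets.

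By the platform annotation, 41097 probe sets had 1 symbol, 1801 several and 11777 none. The 20 member probe sets all matched the RefSeq gene table by gene identifier. Each probe set was kept apart, and the 20549 with a mean log2 value in the upper part, from its median up (intensity 86.8), went into limma 3.58.1 under R 4.3.3 (functions lmFit, contrasts.fit and eBayes, trend on), all 10 arrays in 1 fit of 3 groups, or of 5 groups with each sorted population split by letters. P-values were adjusted by Benjamini-Hochberg over all probe sets tested, with a threshold of 0.05. The 3-group fit was tested on simulated data with independent noise and no letter pattern. The fit split by letters was not simulated. No 2 arrays held identical values. The number of arrays limits the precision. No detection calls were used.

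Members, lists and the letter split were chosen with earlier results of these data known, so adjusted p-values within letters may be too small. Named were all 10 members, the 3 genes closest to each tested member by Pearson r, and, from each list, genes called or among the smallest p-values. List genes shown only for the letter difference, and arrays and genes named beside a value, were chosen after their values were seen. Alternatives varied the constant, filter, normalization, probe set choice, low values, replicates and samples.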

Additional observations from a re-analysis of the deposited data

Results flagged for a closer look

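In CLDN18 probe set 221132_at, NSP b stood apart from the other 3 arrays of its group, at an intensity of 15.6, with a gap to the nearest of 0.873 of the group's range, over Dixon's critical value for 4 arrays. All 10 arrays of this probe set were far below the array median. It was 1 of 40 groups examined, of which chance picks about 1 in 20.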

How the results depend on the processing

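Between SP and NSP 0 probe sets were called, and 1 with letter pairs as a term and 0 to 1 with 1 array left out. SP over unsorted cells gave 431 calls, and 259 without the filter, 179 with the stricter filter at the 75th percentile, 232 with 1 probe set per gene, 58 with AGS-labelled arrays alone and 13 to 747 with 1 array left out (unsorted a, NSP c). NSP over unsorted cells gave 736, and 255 with the stricter filter, 348 with 1 probe set per gene, 448 with only the compared groups in the fit and 27 to 1636 with 1 array left out (unsorted a, NSP c). Within letters a and b there were 855, and 141 without the filter and 2 to 979 with 1 array left out (2 to 14 without SP a, NSP a, NSP b or either unsorted array). The difference between the letter pairs gave 0, and 2 after quantile normalization and 0 to 95 with 1 array left out (95 without SP b). Of the members, 1 was called in each comparison with unsorted cells, against 0 in SP over unsorted cells with AGS-labelled arrays alone and 0 to 1 with 1 array left out. Within letters a and b, 1 was called with values raised to the array median (PGC 1555236_a_at, -1.24, limma adjusted p = 0.0393), and 0 to 1 there and in the difference between the pairs with 1 array left out. The cause was not tested.

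The titles place SP and NSP arrays of the same letter in the same replicate group (SPa to SPd) without saying what its arrays share. The letters were not taken as pairs, since not every same-letter correlation was above 0.1. With the group means removed, same-letter arrays of SP and NSP correlated at 0.146, 0.439, -0.035 and 0.264 for a, b, c and d. SP a and b each correlated best with their own letter's NSP array, and SP c and d each correlated best with the other letter's NSP array. The fit with the replicate block called 0 probe sets (smallest limma adjusted p = 0.0773). No member result reversed direction past its threshold. The 2 unsorted arrays limit TFF1, whose calls ended without either, and low intensities kept TFF2, TFF3, MUC6 and GKN1 out of the tests.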
